A study of Rattus norvegicus with 17 samples.

Results

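Hippocampal RNA-Seq libraries of 17 rats were divided by their expression of Col1a1, which encodes a chain of type I collagen. In 4 of the 17 libraries Col1a1 was at 10 or more on the log2 scale of the deposited values, and in the other 13 it was under 10. The libraries with Col1a1 at 10 or more were replicate 5 of Site #1, replicate 3 of Site #2 and replicates 1 and 2 of Site #3. The other class held 4 libraries of Site #1, 5 of Site #2 and 4 of Site #3. The classes are not experimental groups of the study. They were made from a measured value, so a gene counted below is a gene that went with Col1a1, and Col1a1 itself was left out of every count and test.

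All rats were male SAS Sprague Dawley rats, handled daily and killed without anesthesia, and the sources name no treatment or genotype that would set some of them apart. At Site #1 (Legacy) and Site #2 (Trinity) the rats came from Charles River at 8.3 weeks of age, were single-housed, were killed 18 to 19 days after arrival and were dissected in saline. At Site #3 (UAB) they came from Harlan (Envigo) at 8 weeks, were double-housed, were killed after 27 days and were dissected in artificial cerebrospinal fluid. Whole hippocampi were taken, with 1 library per rat.

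Type I collagen is made by fibroblasts. In the brain these cells lie mainly in the meninges, the membranes on the brain surface, around larger blood vessels and in the stroma of the choroid plexus, whereas neurons and glia make little of it. The meninges and the choroid plexus border the hippocampus, so that either can come along with it in a dissection. Meningeal fibroblasts and arachnoid barrier cells are known for collagens, for small proteoglycans that bind collagen fibrils, and for transporters of organic ions. The comparison asked which genes were higher or lower in libraries with high Col1a1. In bulk tissue, more cells of a type and more RNA per cell cannot be told apart.

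Col1a1 was 10.95 in replicate 5 of Site #1, 10.70 in replicate 1 of Site #3, 10.64 in replicate 3 of Site #2 and 10.07 in replicate 2 of Site #3. In the other 13 libraries it ran from 8.53 to 8.95, with a median of 8.87. These values chose the classes and carry no test. Just inside the threshold lay replicate 2 of Site #3 at 10.07, and just outside it replicate 5 of Site #2 at 8.95, with 1.11 log2 units between them and no library in that gap.

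No read counts can be had from the deposited values, so the depth of each library is unknown, although the paper states an approximate depth per sample. The standard errors given here rest on the spread between rats. The median over all genes lay between 7.48 and 7.59 in every library. The spread between libraries is compressed at low values: over the 13 libraries with Col1a1 under 10, the median SD was 0.00225 log2 units for the 4187 genes with a mean below 0, and 0.0878 for the 10693 genes whose mean was at least 8. Differences of low genes may be compressed in the same way, which was not measured. Replicate 1 of Site #3 stood apart from the other libraries for 2 choroid plexus genes, given below with and without it.

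In the libraries with high Col1a1, Fmod, a collagen-binding proteoglycan, was higher by 1.57 log2 units (standard error 0.11), Slc22a6, an organic anion transporter of the meninges, by 1.39 (standard error 0.09) and Col6a3, a chain of type VI collagen, by 1.07 (standard error 0.09). These 3 genes had been picked with earlier results of these data known. Of 8 collagen chains with a symbol beside Col1a1, 3, with Col6a3 among them, were higher and 5 were not called, where 1.71% of all tested genes were higher. Neither of the 2 collagen processing genes with a symbol was called, which is near the share over all tested genes and no result about them. Aqp1, the water channel of the choroid plexus, was higher by 0.98 (standard error 0.19), or by 0.64 without replicate 1 of Site #3, and the 2 other tested genes of the choroid plexus list were not called. The few lower genes differed by at most 0.39 log2 units, and those with a symbol were Kbtbd11 and Kalrn. None of the lower genes was called in every fit with 1 library left out. The classes held 4 and 13 libraries.

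Genes were compared between the classes with limma, with site as a covariate, over the 22663 genes that were not at exactly 0 in all libraries. A gene was called at an adjusted p under 0.05 (Benjamini-Hochberg over all genes tested), and differences are given as Col1a1 of 10 or more minus under 10. By this rule 387 genes (1.71% of those tested) were higher with high Col1a1 and 20 genes (0.0882%) were lower, so that 95.1% of the 407 calls (1.8% of those tested) were upward. At an unadjusted p under 0.05 there were 1653 higher and 982 lower genes, together 11.6% of those tested. All 4 libraries with high Col1a1 lay above all 13 others for 224 genes (0.988%) and below them for 11 genes (0.0485%), and 211 of the 387 and 4 of the 20 called genes were among these. With every library centred on its median gene, which moved the median difference by -0.04 log2 units, the split changed to 471 genes higher and 6382 lower. Quantile normalization gave 297 higher and 19 lower, of which 294 and 8 were among the 387 and 20. For a measure of level, 2 was raised to each value and every library was scaled to the same sum, which gives an approximate CPM. Of those 6382 genes, 5129 were under 1 CPM, and the median difference of the 6382 was -0.00089 with the values as deposited. Median centring of the genes with at least 1 CPM gave 277 higher and 26 lower.

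**Figure D1:**
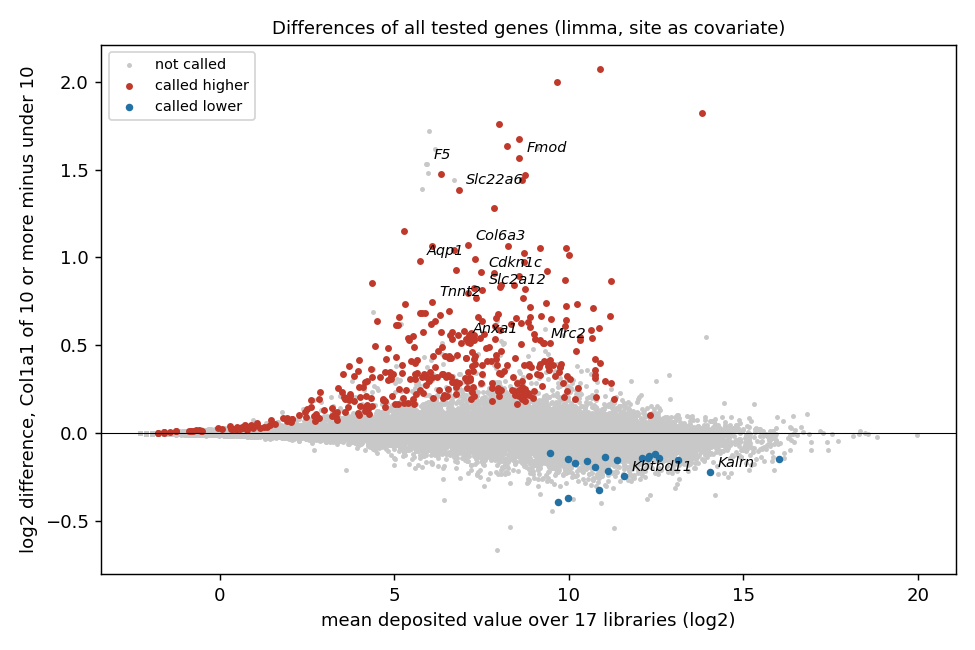
Log2 difference of each of the 22663 tested genes (vertical axis, Col1a1 of 10 or more minus under 10) against its mean deposited value over the 17 libraries (horizontal axis, log2). Each point is 1 gene, with the 387 genes called higher in red and the 20 called lower in blue. Upward differences reach 2.07, and the called downward ones stay between -0.39 and -0.11.

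The 387 higher genes differed by a median of 0.33 log2 units, with the middle 50% between 0.20 and 0.54 and the largest at 2.07. The difference was over 1 log2 unit for 21 genes, between 0.5 and 1 for 89, between 0.25 and 0.5 for 137, between 0.1 and 0.25 for 85 and at most 0.1 for 55. Over all tested genes the median difference was -7.9e-05. A mean of at least 1 CPM was reached by 13678 genes, of which 259 (1.89%) were called higher, and the other 128 higher genes were below it. All 20 lower genes had at least 1 CPM, with differences from -0.39 to -0.11 and a median of -0.15.

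Only 1435 of the tested genes could be paired with a gene symbol. Of these, 27 (1.88%) were higher and 2 (0.139%) were lower, and 378 of the 407 called genes are therefore known by identifier alone. Among these were the 2 genes with the largest upward difference. ENSRNOG00000020369 was 12.82 in replicate 5 of Site #1, 12.27 in replicate 3 of Site #2, 12.93 in replicate 1 of Site #3 and 11.86 in replicate 2 of Site #3, and 10.20 to 10.72 in the other libraries, with a median of 10.39. The 2 classes did not overlap, and the difference was 2.07 (standard error 0.14, limma, Benjamini-Hochberg adjusted p = 3.13e-07). ENSRNOG00000016957 was 11.47, 11.21, 11.75 and 10.33 in the same 4 libraries and 8.97 to 9.50 in the others, with a median of 9.23. It too was without overlap, at a difference of 2.00 (standard error 0.17, limma, Benjamini-Hochberg adjusted p = 2.15e-06).

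The largest differences among the called genes with a symbol belonged to Fmod, Slc22a6 and Col6a3. Fmod encodes fibromodulin, a small leucine-rich proteoglycan that binds collagen fibrils. It was 9.98 in replicate 5 of Site #1, 9.42 in replicate 3 of Site #2, 10.31 in replicate 1 of Site #3 and 9.53 in replicate 2 of Site #3. In the 13 other libraries it ran from 7.97 to 8.65, with a median of 8.17. The classes did not overlap, and Fmod was higher by 1.57 log2 units (standard error 0.11, limma, Benjamini-Hochberg adjusted p = 5.12e-07).

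Slc22a6 encodes OAT1, a transporter of organic anions that is found in the kidney, the meninges and the choroid plexus. Its values were 7.91, 8.06, 7.99 and 7.77 in the 4 libraries in the same order, and 6.27 to 6.93 in the others, with a median of 6.53. The 4 libraries were within 0.29 log2 units of each other and all above the rest, and the difference was 1.39 (standard error 0.09, limma, Benjamini-Hochberg adjusted p = 1.32e-07). Col6a3 encodes a chain of type VI collagen, which forms beaded microfibrils around cells. It was 7.85, 7.83, 8.33 and 7.85 in these libraries and 6.59 to 7.40 in the others, with a median of 6.82. Again the classes did not overlap, and Col6a3 was higher by 1.07 (standard error 0.09, limma, Benjamini-Hochberg adjusted p = 3.57e-06). Fmod, Slc22a6 and Col6a3 were each called with any 1 of the 17 libraries left out. None of them was called within Site #3 alone (limma, adjusted p = 0.141, 0.0722 and 0.206 in this order).

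The order of the 4 libraries was not the same for each gene. Col1a1 was highest in replicate 5 of Site #1, Fmod and Col6a3 in replicate 1 of Site #3, and Slc22a6 in replicate 3 of Site #2. Among the libraries under the threshold, replicate 6 of Site #3 had the highest Fmod, Slc22a6 and Col6a3, at 8.65, 6.93 and 7.40, while its Col1a1, at 8.94, was close to that of several other libraries.

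**Figure D2:**
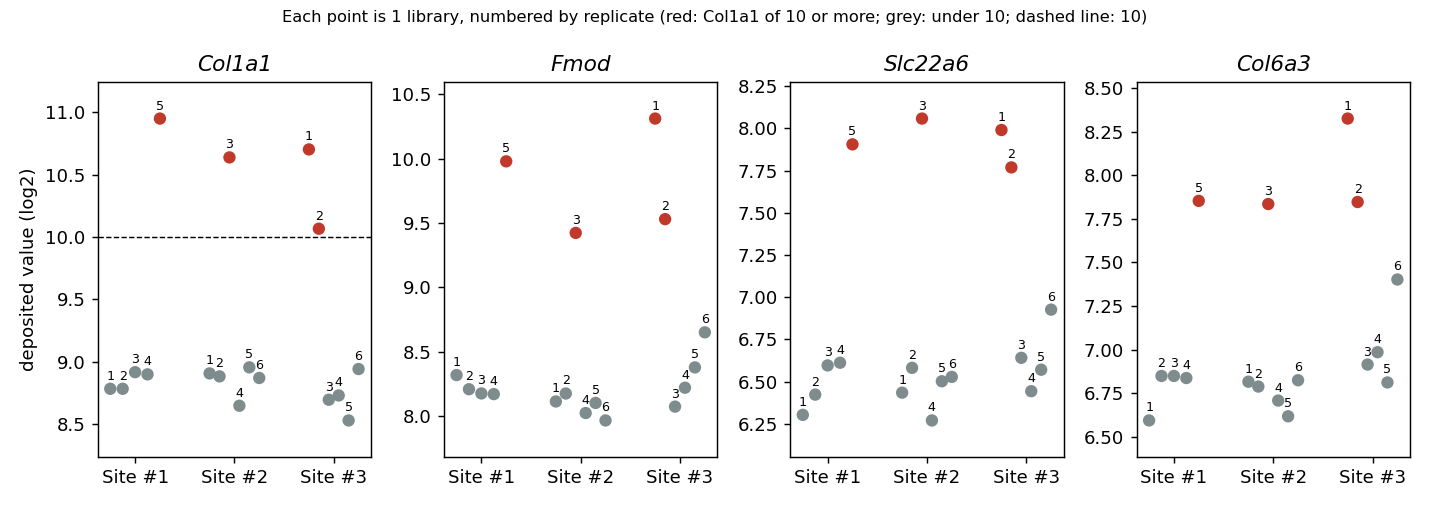
Deposited log2 values (vertical axes, each with its own range) of Col1a1, Fmod, Slc22a6 and Col6a3 in every library, by site (horizontal axis). Each point is 1 library, numbered by replicate, with the 4 libraries at a Col1a1 of 10 or more in red and the other 13 in grey, and the dashed line marks 10. The red points lie above all grey points for each gene, and Fmod, Slc22a6 and Col6a3 have their highest grey point in replicate 6 of Site #3.

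The 250 bases before the transcription start were looked at for higher genes with a symbol. Of these 27 genes, 16 had an entry in the RefSeq promoter table (build GRCr8). The other 11 were Adgra2, Cdkn1c, Fam129a, Mrc2, Pdgfrb, RGD1305645, RGD1561161, Slc22a6, Slc47a1, Stom and Tgm2. A set of 5 short motifs was searched on both strands, and matches are in capitals in the sequences shown. They are those of Fmod and Col6a3, the called genes of the collagen matrix with the largest differences, and of Anxa1, which held TATAAA. The sequences run 5′ to 3′ on the strand of the gene and end at the base before the start. They lie at chr13:48045317-48045566 on the plus strand for Fmod, chr9:98886959-98887208 on the minus strand for Col6a3 and chr1:227303733-227303982 on the minus strand for Anxa1.
Fmod: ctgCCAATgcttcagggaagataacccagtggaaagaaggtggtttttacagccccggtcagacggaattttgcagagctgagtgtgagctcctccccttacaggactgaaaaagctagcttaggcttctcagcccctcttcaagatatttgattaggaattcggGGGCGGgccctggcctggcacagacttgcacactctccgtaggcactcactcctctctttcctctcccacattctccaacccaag
Col6a3: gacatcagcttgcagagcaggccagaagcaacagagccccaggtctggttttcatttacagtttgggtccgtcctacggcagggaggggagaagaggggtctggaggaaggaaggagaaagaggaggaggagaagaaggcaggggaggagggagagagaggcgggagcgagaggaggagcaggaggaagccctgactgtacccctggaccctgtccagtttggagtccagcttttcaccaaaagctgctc
Anxa1: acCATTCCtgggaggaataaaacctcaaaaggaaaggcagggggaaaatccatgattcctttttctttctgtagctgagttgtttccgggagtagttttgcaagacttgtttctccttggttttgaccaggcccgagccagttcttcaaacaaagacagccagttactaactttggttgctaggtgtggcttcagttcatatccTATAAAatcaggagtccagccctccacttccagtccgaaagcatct

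In the sequence of Fmod, the capitals match the CCAAT box motif (CCAAT, 247 to 243 bases before the start) and the GC box motif (GGGCGG, 85 to 80 bases before it). In that of Anxa1 they are CATTCC, the reverse complement of the TEAD motif GGAATG, and the TATA box motif TATAAA at 46 to 41 bases before the start. All are matches of sequence alone, and whether they act as promoter elements was not tested. Col6a3 held none of the 5 motifs in this window. The GC box occurred in 8 of the 16 promoters (50%, against 32.4% of all 27457 promoters), the TATA box in 3 (18.8% against 13.1%) and GGAATG in 3 (18.8% against 11.8%). CCAAT occurred in 2 (12.5% against 34.3%) and the AP-1 motif TGANTCA in 1 (6.2% against 6.4%). The median GC content was 58.0% in the 16 promoters and 52.0% in all promoters. These shares describe 16 sequences and were not tested.

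Mrc2 encodes an endocytic receptor that takes up collagen. It was 9.82, 9.59, 9.71 and 9.57 in replicate 5 of Site #1, replicate 3 of Site #2 and replicates 1 and 2 of Site #3, against 8.99 to 9.38 in the others, with a median of 9.14. No library overlapped, and the difference was 0.51 (standard error 0.05, limma, Benjamini-Hochberg adjusted p = 9.64e-06). Anxa1 encodes annexin A1, which binds phospholipids and calcium and dampens inflammation. It was 7.52, 7.48, 7.57 and 7.21 in these 4 libraries and 6.73 to 7.17 in the others, with a median of 6.93. The classes came within 0.04 of each other without overlap, and Anxa1 was higher by 0.54 (standard error 0.06, limma, Benjamini-Hochberg adjusted p = 3.11e-05). Kank2, an adaptor at focal adhesions, was also without overlap, at 9.85 to 10.18 against 9.54 to 9.83, and was higher by 0.35 (standard error 0.06, limma, Benjamini-Hochberg adjusted p = 0.00184). Tgm2, a transglutaminase that cross-links proteins, overlapped between the classes. It was 9.97 in replicate 5 of Site #1 and 9.25 to 9.59 in the other 3, against 9.06 to 9.53, and its difference of 0.41 (standard error 0.09, limma, Benjamini-Hochberg adjusted p = 0.0244) was no longer called without replicate 5 of Site #1 (0.30, adjusted p = 0.245), replicate 3 of Site #2 (0.42, adjusted p = 0.0881) or replicate 1 of Site #3 (0.39, adjusted p = 0.0883).

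Collagen chains beside Col1a1 were represented by 8 tested genes with a symbol. Of these 3, with Col6a3 among them, were higher (1.71% of all tested genes), 0 were lower (0.0882% of all) and 5 were not called, with a median difference of 0.24. Col13a1, a collagen that spans the cell membrane, was 5.54, 5.56, 5.42 and 5.31 in the 4 libraries and 5.03 to 5.30 in the others, with a median of 5.12. It was higher by 0.34 with no overlap (standard error 0.04, limma, Benjamini-Hochberg adjusted p = 5.64e-05). Col26a1 was 5.16, 5.18, 5.14 and 5.04 against 4.73 to 4.94, with a median of 4.78, also with no overlap, and was higher by 0.35 (standard error 0.04, limma, Benjamini-Hochberg adjusted p = 1.47e-05). Both had a mean under 1 CPM. Col4a1, a chain of the type IV collagen of basement membranes, was 11.30 in replicate 5 of Site #1 and 10.69 to 10.90 in the other 3 libraries, against 10.37 to 10.82. The classes overlapped, and its difference of 0.34 (standard error 0.10) was not called (limma, Benjamini-Hochberg adjusted p = 0.105). It was called after median centring (0.30, adjusted p = 0.0164) and with Col1a1 as a continuous measure over all 17 libraries (adjusted p = 0.0230). The median-centred fit called 471 genes higher and 6382 lower in all, so a call gained in it says little about a single gene. The differences of the remaining chains were 0.14 for Col11a2, 0.08 for Col22a1, 0.06 for Col9a1 and -0.0041 for Col17a1, none of them called. Without replicate 1 of Site #3, Col22a1 was called higher (0.10, limma, adjusted p = 0.0150), as it was without the site term (adjusted p = 0.0461) and with robust eBayes (adjusted p = 0.0447), and after median centring Col17a1 was called lower (-0.046, adjusted p = 0.0463). The type I partner chain Col1a2 and Col3a1 had no identifier in the tables used here, so they could not be named among the tested genes. Nor could Dcn, Lum, Bgn and Ogn, the best known proteoglycans of fibroblasts.

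Aqp1 encodes a water channel that is abundant in the choroid plexus epithelium. It was 7.74 in replicate 1 of Site #3, but 6.07, 6.18 and 6.14 in replicate 5 of Site #1, replicate 3 of Site #2 and replicate 2 of Site #3. In the other libraries it ran from 5.28 to 5.70, with a median of 5.48. All 4 libraries were above the rest, with replicate 1 of Site #3 far above the other 3, and the difference was 0.98 (standard error 0.19, limma, Benjamini-Hochberg adjusted p = 0.00976). Without replicate 1 of Site #3 it was 0.64 (limma, Benjamini-Hochberg adjusted p = 3.16e-05).

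Slc2a12, which encodes the glucose transporter GLUT12, was 7.92, 7.93, 8.71 and 8.10 in replicate 5 of Site #1, replicate 3 of Site #2 and replicates 1 and 2 of Site #3. It was 7.13 to 7.52 in the others, with a median of 7.29. There was no overlap, and Slc2a12 was higher by 0.82 (standard error 0.10, limma, Benjamini-Hochberg adjusted p = 1.09e-04). Slc47a1, which encodes the extrusion transporter MATE1, was 4.75, 5.11, 4.87 and 5.24 in the same order and 4.52 to 4.86 in the others. These values overlapped, and the difference of 0.35 (standard error 0.07, limma, Benjamini-Hochberg adjusted p = 0.00807) was lost without replicate 3 of Site #2 (0.33, adjusted p = 0.0610).

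Cdkn1c encodes p57, an inhibitor of cyclin-dependent kinases. It was 8.23, 8.35, 8.41 and 7.67 in the 4 libraries and 7.10 to 7.44 in the others, with a median of 7.26, and replicate 2 of Site #3 was the nearest to the rest. Cdkn1c was higher by 0.92 with no overlap (standard error 0.10, limma, Benjamini-Hochberg adjusted p = 1.95e-05). Tnnt2, the cardiac form of troponin T, was 6.89, 6.39, 6.35 and 7.06, against 5.66 to 6.56 in the others with a median of 5.83. It overlapped because replicate 6 of Site #3 reached 6.56, and its difference was 0.75 (standard error 0.14, limma, Benjamini-Hochberg adjusted p = 0.00807). Without replicate 5 of Site #1 the difference of Tnnt2 was 0.64 and was not called (adjusted p = 0.0960, limma).

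Adgra2 encodes an adhesion G protein-coupled receptor of brain vessels, also known as GPR124. It was 9.99, 9.64, 9.99 and 9.96 in the 4 libraries and 9.27 to 9.65 in the others, so that replicate 3 of Site #2 alone overlapped, and the difference was 0.32 (standard error 0.04, limma, Benjamini-Hochberg adjusted p = 4.13e-04). Pdgfrb, the platelet-derived growth factor receptor of mural cells and fibroblasts, was 10.65, 10.43, 10.42 and 10.38, against at most 10.43 in the others with a median of 10.22, and overlapped. Its difference was 0.26 (standard error 0.06, limma, Benjamini-Hochberg adjusted p = 0.0254). It was no longer called without replicate 5 of Site #1 (0.22, adjusted p = 0.207), replicate 3 of Site #2 (0.27, adjusted p = 0.0914) or replicate 1 of Site #3 (0.27, adjusted p = 0.0616).

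Another 3 genes completed the 15 largest upward differences with a symbol and at least 1 CPM. Fam129a was 6.24 to 6.47 in the 4 libraries and 5.79 to 6.23 in the others, higher by 0.32 with no overlap, and its call was lost without replicate 5 of Site #1 (adjusted p = 0.0507, limma). RGD1561161 was 7.54 in replicate 1 of Site #3, 6.63 to 6.82 in the other 3 and 6.27 to 6.56 in the rest. Its difference of 0.44 (standard error 0.10) became 0.27 without replicate 1 of Site #3, where it was still called, and was lost without replicate 5 of Site #1 (0.49, adjusted p = 0.0534, limma) or without replicate 3 (0.43, adjusted p = 0.0532) or 5 (0.43, adjusted p = 0.0504) of Site #3. RGD1305645 was 6.22 to 6.39 against 5.81 to 6.30, overlapped, and was higher by 0.31. It lost its call without replicate 5 of Site #1 (adjusted p = 0.143, limma), replicate 3 of Site #2 (adjusted p = 0.0879) or replicate 1 of Site #3 (adjusted p = 0.0504).

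The remaining 8 higher genes with a symbol were chosen for naming after their values were seen. Stom, Rassf3 and Ajuba were higher by 0.24, 0.23 and 0.22, and Irs3 and Gpha2 by 0.20 and 0.19. Tsga10ip, the homeobox gene Six2 and the heparan sulfate sulfotransferase gene Hs3st3a1 were higher by 0.09, 0.07 and 0.01. After median centring, which called 6382 genes lower in all, Hs3st3a1 was called lower instead, at -0.029 (limma, adjusted p = 0.0498). The last 5 of these had means under 1 CPM. Leaving out 1 library ended the call of Stom (replicate 5 of Site #1 or 3 of Site #2, adjusted p = 0.0699 and 0.0564 by limma), Ajuba (replicate 5 of Site #1, adjusted p = 0.0775) and Irs3 (replicate 3 of Site #2, adjusted p = 0.0557). It also ended that of Six2 (replicate 3 of Site #2 or 2 of Site #3, adjusted p = 0.168 and 0.0645 by limma), and Rassf3 was called in 4 of 17 such fits. For Gpha2 and Hs3st3a1 the difference varied with site (Benjamini-Hochberg adjusted p = 0.00116 and 0.0118 for the limma interaction).

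Downward differences were few and small. Kalrn, which encodes kalirin, a guanine nucleotide exchange factor of dendritic spines, was 13.85, 13.80, 13.98 and 13.96 in the 4 libraries and 13.91 to 14.24 in the others, with a median of 14.13. It overlapped, and its difference was -0.22 (standard error 0.05, limma, Benjamini-Hochberg adjusted p = 0.0440). Kbtbd11, which encodes a Kelch and BTB domain protein, was 11.36, 11.42, 11.44 and 11.39 and was 11.52 to 11.91 in the others, with a median of 11.63. All 4 libraries lay below the rest, and the difference was -0.24 (standard error 0.06, limma, Benjamini-Hochberg adjusted p = 0.0330). With 1 library left out, Kbtbd11 was called in 8 of 17 fits and Kalrn in 3 of 17, with differences of the same sign throughout. The largest downward differences of genes without a symbol were -0.39 for ENSRNOG00000051905 and -0.37 for ENSRNOG00000052899, both with overlap between the classes and called in 8 and 10 of the 17 fits with 1 library left out. ENSRNOG00000051905 was 9.33, 9.35, 9.42 and 9.65 in the 4 libraries and 9.57 to 10.19 in the others.

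Within each site the 21 named genes with a symbol had the direction that they had over all sites, as the plot of differences by site shows. They were called on these same libraries, so that their sign within a site was largely fixed by the choice. The difference of Fmod was 1.76 at Site #1, 1.35 at Site #2 and 1.59 at Site #3. For Slc22a6 the same differences were 1.42, 1.59 and 1.23, and for Col6a3 they were 1.07, 1.08 and 1.06. Aqp1 had the widest range between sites, from 0.54 at Site #1 to 1.35 at Site #3. Sites #1 and #2 have 1 library each with high Col1a1, so these values have no error of their own. Within Site #3 alone, with 2 libraries against 4, limma called 18 genes higher and 0 lower, and 5 of the 18 were among the 387. None of the 33 called genes named in the text was called in that fit. Without Site #3, 327 genes were higher, of which 258 were among the 387. The difference varied with site for 306 of all tested genes (1.35%), and for 23 of the 387 higher genes (5.94%).

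**Figure D3:**
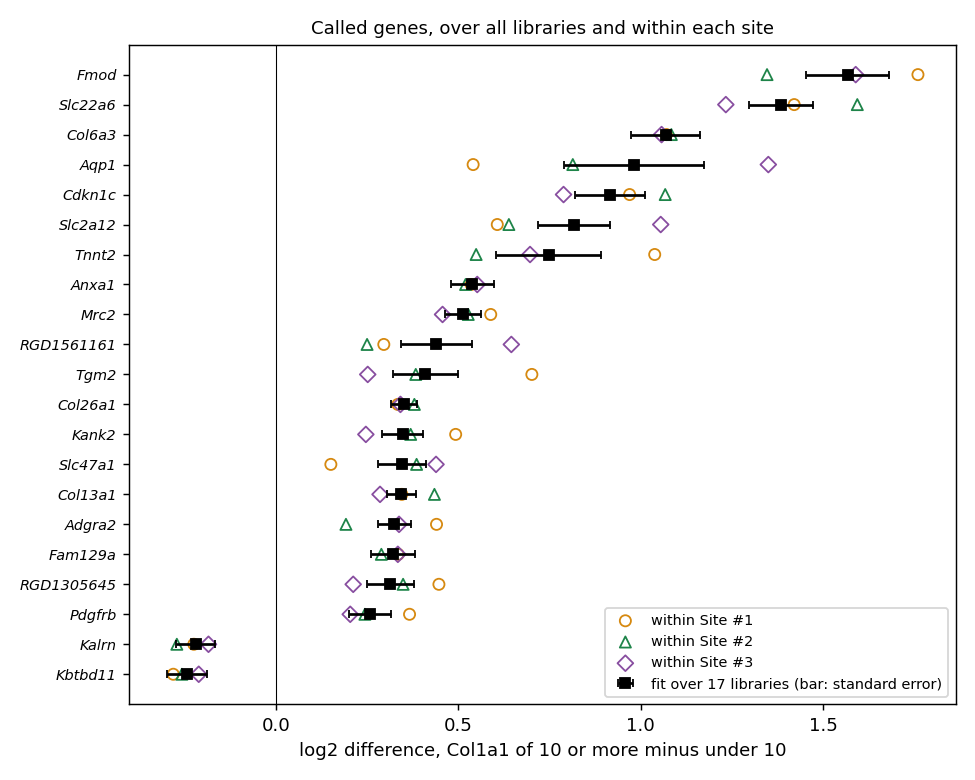
Log2 difference (horizontal axis, Col1a1 of 10 or more minus under 10) of the 21 called genes with a symbol named by the rule in the methods (vertical axis). Black squares are the limma fit over 17 libraries with its standard error, and open symbols are the differences within each site. All 19 higher genes lie right of 0 and both lower genes left of 0 in each of the sites.

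Genes of the lists of cell types and matrix were counted for the 28 of 185 listed symbols that had an identifier, all of which were tested. The meningeal fibroblast and arachnoid list had 4 tested members of 26, of which Slc22a6, picked as a marker from earlier results, and Slc47a1 were higher (1.71% of all tested genes were) and Zic4 and Tbx15 were not called, at differences of 0.21 and 0.07. Zic4 was called without replicate 2 of Site #3 (0.31, limma, adjusted p = 0.0180) and Tbx15 without replicate 3 of Site #2 (0.11, adjusted p = 0.0189). The median of the 4 was 0.28, against -7.9e-05 over all genes. Their summed level was 8.37 to 9.86 CPM in the 4 libraries and 4.21 to 5.67 CPM in the other 13, without overlap. Without Slc22a6, the summed level of the other 3 genes was 2.96 to 3.55 CPM against 2.38 to 3.01 CPM, and the classes overlapped. The part of meningeal RNA in the calls was not tested. Of the lists of fibrillar matrix and of small leucine-rich proteoglycans, a single member each had an identifier, Col6a3 and Fmod, and both were higher. These too had been picked as markers from earlier results, so their calls say nothing further about the lists. The collagen processing enzymes Adamts2 and P4ha2 had differences of 0.37 and 0.10, and neither was called with the values as deposited. Adamts2 was called after median centring (0.33, limma, adjusted p = 0.0150), in a fit that called 471 genes higher and 6382 lower. Too few members of any list could be named to say how the list as a whole behaved.

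The choroid plexus list had 3 tested members of 18, of which Aqp1 was higher, where 1.71% of all tested genes were. F5, the gene of coagulation factor V, was 12.04 in replicate 1 of Site #3 and 5.52 to 5.64 in the other 3 libraries with high Col1a1, against 5.36 to 5.76 in the rest. Its high value was thus confined to 1 of the 17 libraries. Its difference of 1.53 (standard error 0.78, limma, Benjamini-Hochberg adjusted p = 0.472) was 0.08 without that library. Car12, a carbonic anhydrase, had a difference of 0.17 and was not called. The summed level of the 3 genes was 83.5 to 224 CPM in the 4 libraries and 72.8 to 119 CPM in the others, with overlap. Most of it was Car12, with a mean of 86.5 CPM over all libraries, against 7.21 for F5 and 1.46 for Aqp1. Without replicate 1 of Site #3, 320 genes were higher with high Col1a1, of which 288 were among the 387. The part of choroid plexus RNA in the calls was not tested, and Ttr, the best known gene of that epithelium, had no identifier in the tables used here.

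In the mural list Pdgfrb was the single member with an identifier and was higher, as were 1.71% of all tested genes. Its level was 33.1 to 40.04 CPM against 24.4 to 34.1 CPM. The endothelial markers Esam and Flt1 had differences of 0.18 and -0.01 and were not called. With 2 markers, 0 called is near the share over all tested genes, 1.71% higher and 0.0882% lower, and is no result about endothelial cells. The summed level of both was 72.6 to 78.4 CPM in the 4 libraries and 61.1 to 79.99 CPM in the others. Esam was called higher without replicate 2 of Site #3 (0.22, limma, adjusted p = 0.0374). Col4a1 was the single member of the basement membrane list with an identifier. Ependymal, blood and oligodendrocyte markers had no identifier and could not be named among the tested genes.

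Markers of macrophages and microglia, of astrocytes and of neurons were not called in either direction with the values as deposited. With 13 such markers, 0 called is near the share called over all tested genes, 1.71% higher and 0.0882% lower, and is no result about these cells. After median centring, which called 6382 genes lower in all, Csf1r and P2ry13 were called lower (limma, Benjamini-Hochberg adjusted p = 0.0459 and 0.0237). Cd163 was called higher without replicate 3 of Site #2 (0.25, limma, adjusted p = 0.00342). The 6 tested markers of border macrophages and microglia had a median difference of -0.11, from -0.16 for Tmem119 to 0.15 for Cd163, a marker of border macrophages. The 4 astrocyte markers had a median of -0.07, from -0.09 for Slc1a3 to 0.07 for Aldh1l1. For the 3 neuronal markers the median was -0.04, from -0.10 for Gad2, an enzyme of GABA synthesis, to -0.0072 for Grin1, a subunit of the NMDA receptor. Summed levels overlapped between the classes for all of these lists, at 165 to 214 CPM against 162 to 216 CPM for macrophages and microglia, 2150 to 2388 against 2047 to 2552 CPM for astrocytes and 961 to 1022 against 946 to 1135 CPM for neurons.

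**Figure D4:**
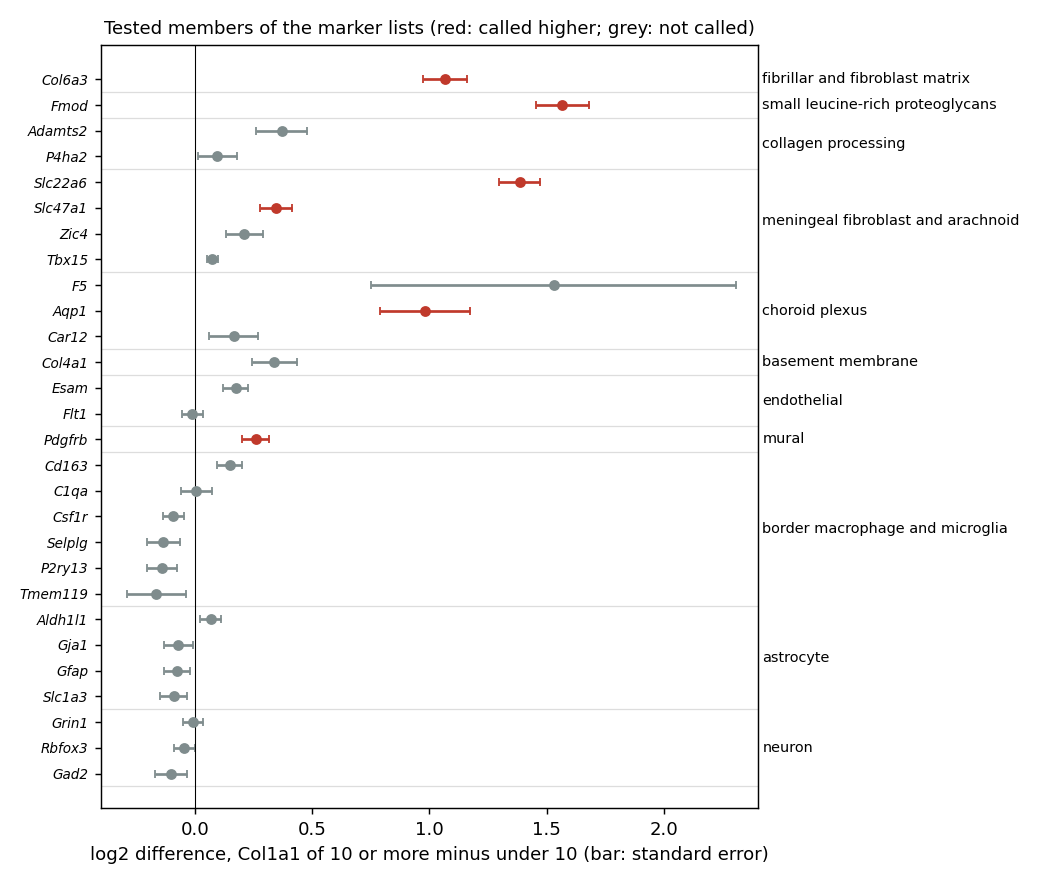
Log2 difference (horizontal axis, Col1a1 of 10 or more minus under 10, bars are standard errors from limma) of the 28 tested genes of the marker lists, grouped by list. Red points are called higher and grey points are not called. Slc22a6, Fmod and Col6a3 lie above 1, F5 has a standard error of 0.78, and the microglial, astrocyte and neuronal markers lie between -0.16 and 0.15.

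How well the called genes carried over to a library that had no part in choosing them was described by leaving out each library, calling genes on the other 16, and comparing the library with the mean of the other libraries of its site that had Col1a1 under 10. In replicate 5 of Site #1, 247 of the 258 genes called higher without it (95.7%) were above that mean, against 50.8% of all tested genes. The share was 92.8% in replicate 1 of Site #3 (297 of 320 genes, 43.9% of all tested genes) and 91.6% in replicate 3 of Site #2 (294 of 321, 48.6% of all). In replicate 2 of Site #3, the library with the lowest Col1a1 of the 4, it was 81.2% (398 of 490, 42.8% of all). The median differences of these genes were 0.46, 0.40, 0.31 and 0.10 log2 units in the same order. Among genes of at least 1 CPM the shares were 99.4%, 99.5%, 99.0% and 90.8%.

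In the 13 libraries with Col1a1 under 10 the same share ran from 31.7% to 75.7%, with a median of 46.9%, below that of each of the 4. The highest were 75.7% in replicate 6 of Site #3 (302 of 399 genes, median difference 0.05) and 67.6% in replicate 4 of Site #1. Over all tested genes the share was 42.1% to 52.3% in these 13 libraries. Each of the 4 shares rests on the 3 other libraries with high Col1a1, and no test was made. The libraries that gave the reference mean took part in calling the genes, so the shares are not independent of the calls. This reading was added after seeing the data.

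**Figure D5:**
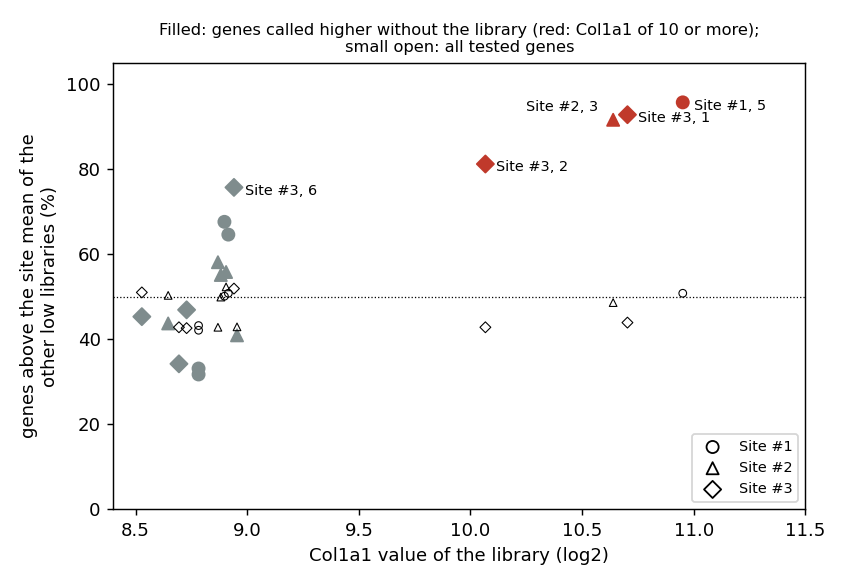
Share of genes (vertical axis, %) that lay above the mean of the other libraries of the same site with Col1a1 under 10, against the Col1a1 value of the library (horizontal axis, log2). Filled symbols count the genes called higher without that library, in red for the 4 libraries with Col1a1 of 10 or more, and small open symbols count all tested genes; the dotted line marks 50%. The 4 red symbols lie between 81.2% and 95.7%, and the grey ones between 31.7% and 75.7%.

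The 4 libraries differed among themselves in how far the called genes were raised. Of the 387 higher genes, replicate 5 of Site #1 was the highest of the 4 for 167, replicate 1 of Site #3 for 126, replicate 3 of Site #2 for 70 and replicate 2 of Site #3 for 24. Replicate 2 of Site #3 was the lowest of the 4 for 231 genes. These libraries took part in calling the genes, and no such counts are given over all tested genes. The number of genes called higher was 258 without replicate 5 of Site #1 and 490 without replicate 2 of Site #3, the lowest and the highest count with 1 library left out, and 210 of the 387 were called in every such fit. None of the 20 lower genes was, and their number ran from 4 to 46.

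Among the 13 libraries with Col1a1 under 10, where Col1a1 varied by 0.43 log2 units, no gene followed Col1a1 at an adjusted p under 0.05 in limma (smallest adjusted p = 0.156), although 2076 genes (9.16%) had an unadjusted p under 0.05. The slopes of Slc22a6 and Col6a3 on Col1a1 in these libraries were 0.95 (standard error 0.26) and 0.90 (standard error 0.30) log2 units per log2 unit of Col1a1, with unadjusted p of 0.00301 and 0.0115 and an adjusted p of 0.487 for both (limma). Both genes had been picked from earlier results of these data. Replicate 6 of Site #3 had the highest value of each among these libraries, at 6.93 and 7.40, with a Col1a1 of 8.94. For Fmod the slope was 0.46 (standard error 0.33, limma, adjusted p = 0.708) and for Aqp1 it was 0.045 (standard error 0.24, limma, adjusted p = 0.979). With Col1a1 as a continuous measure over all 17 libraries, 485 genes rose with it and 30 fell, including 372 of the 387 and 16 of the 20.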

How the data were processed

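RNA-Seq of whole hippocampus was analysed in 17 rats, 5 at Site #1, 6 at Site #2 and 6 at Site #3, which are separate animals. Per the paper, the authors used Trimmomatic for trimming, HISAT2 for alignment to rn6, and featureCounts for gene counts; the submitters' processing notes list hg19 beside rn6. They deposited values on a log2 scale, whose normalization step is not named in the sources used here but which look like the regularized log of DESeq2, the tool that the authors used, since low genes hardly vary and some values are negative. The paper and the labels name different library kits. No counts were used, so no depth or counting interval is given, and the test planned for counts was replaced by limma on the log2 values, as also planned.

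Libraries were classed by a Col1a1 value of 10 or more. The members, gene lists and tests were chosen with earlier results of these data known. Of 32494 genes, the 9830 at exactly 0 in all libraries and Col1a1 were left out. Site was a covariate of the two-sided limma fit (lmFit, then eBayes with trend). On simulated libraries it was checked for recovery of known shifts. Alternatives were no site term, robust eBayes, no trend, array weights, a filter at 1 CPM, quantile normalization, median centring, a replicate block, Site #3 alone or left out, Col1a1 as a continuous measure, and each library left out; centring of genes with at least 1 CPM and the reading of left-out libraries were added after seeing the data. Same-numbered libraries of different sites are different rats, and their deviations correlated from -0.46 to 0.39 over 16 pairs, with 4 over 0.1, so the numbers were not taken as pairs. 1 gene of the lists is not reported here.

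Named genes were Fmod, Col6a3 and Slc22a6, the 15 largest upward and 10 largest downward calls with a symbol and at least 1 CPM (only 2 downward calls had a symbol), list members that were called or had the highest mean of their list, all collagen chains, and 2 genes without a symbol in each direction. Symbols came from supplementary tables that pair 1798 identifiers with names. The software was limma 3.58.1 (R 4.3.3) and, for tables and plots, pandas 2.3.3, numpy 2.4.6 and matplotlib 3.10.9 (Python 3.11.15).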

Additional observations from a re-analysis of the deposited data

Results flagged for a closer look

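Values of the 36 genes named by the rule in the methods were examined at each site for a library far from the others of that site, by Dixon's ratio at 95%, which flags about 1 group in 20 by chance. Of 108 groups of values, 26 held such a library, always the highest one and always a library with Col1a1 of 10 or more. Since the libraries were classed by Col1a1, this repeats the comparison of the report for the sites that have 1 such library.

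Replicate 5 of Site #1 stood above its site for Fmod at 9.98, Slc22a6 at 7.91, Col6a3 at 7.85, ENSRNOG00000020369 at 12.82, ENSRNOG00000016957 at 11.47 and Adgra2 at 9.99. It also did so for 4 genes that were not called between the classes, Col4a1 at 11.30, Col11a2 at 12.20, Col22a1 at 3.39 and P4ha2 at 10.17. At Site #2 replicate 3 stood apart for Fmod at 9.42, Slc22a6 at 8.06, Col6a3 at 7.83, ENSRNOG00000020369 at 12.27, ENSRNOG00000016957 at 11.21, Anxa1 at 7.48, Mrc2 at 9.59 and Cdkn1c at 8.35. The same library was the high one for Slc2a12 at 7.93, Aqp1 at 6.18, Tnnt2 at 6.39, Col13a1 at 5.56 and Col26a1 at 5.18. At Site #3, where 2 libraries had high Col1a1, replicate 1 stood apart for Aqp1 at 7.74, RGD1561161 at 7.54 and Tgm2 at 9.59.

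The difference between the classes varied with site for 2 of the named genes, by limma's interaction term with Benjamini-Hochberg adjustment over all genes. For Gpha2 (adjusted p = 0.00116) it was 0.30 at Site #1, 0.23 at Site #2 and 0.10 at Site #3, and for Hs3st3a1 (adjusted p = 0.0118) it was 0.0070, 0.021 and 0.0097. Both genes are under 1 CPM.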

How the results depend on the processing

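The number of genes higher with high Col1a1 stayed within 1.5 times of 387 under each of the other settings, from 258 (without replicate 5 of Site #1) to 490 (without replicate 2 of Site #3), except in Site #3 alone, where it was 18, and over the 13 libraries under 10, where it was 0; both use fewer libraries. The number of lower genes, 20, was less stable. It was 7 without the site term, 6382 after median centring, 7 without Site #3, 0 in Site #3 alone and 0 over the 13 libraries under 10, and 4 to 46 with 1 library left out. The cause was not tested. It moved by over 1.5 times for 15 of the 17 libraries, all but replicates 3 and 4 of Site #1, with 4 without replicate 5 of Site #1 or replicate 3 of Site #2, 46 without replicate 4 of Site #2 and 36 without replicate 6 of Site #3. With a block for the replicate number, although the rats are not paired, 354 genes were higher and 77 lower, of which 309 and 13 were among the 387 and 20. After median centring of the genes with at least 1 CPM, chosen after seeing the data, 277 were higher and 26 lower.

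For the 33 called genes named in the text, 974 comparisons with other settings gave 798 with the same direction and call, 168 with the same direction and no call, and 8 with the opposite sign. Of these 8, 7 are slopes on Col1a1 over the 13 libraries under 10, none called: Slc2a12 -0.057, Kank2 -0.12, RGD1305645 -0.40, Rassf3 -0.35, Ajuba -0.072, Kbtbd11 0.090 and ENSRNOG00000052899 0.30. The other is Hs3st3a1 after median centring, at -0.029, where it was called lower (limma, adjusted p = 0.0498).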
